A study of Mus musculus with 6 samples.

Results

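The cell cycle and cytokinesis genes described here are 42 mouse genes chosen by name: proliferation markers, cyclins and their kinases, replication genes, mitotic regulators and the machinery of cytokinesis. Each of the 42 symbols was matched exactly among the 24346 gene symbols listed for every library. They were measured by mRNA sequencing of whole mouse retina in 3 Unc119 knockout libraries (Unc119-/-, KO) and 3 wild-type libraries (Unc119+/+, WT). UNC119 binds lipid-modified proteins, among them rod transducin, and helps to carry them within photoreceptors. The labels do not describe the allele, and they give no age, sex, strain, treatment or batch. The labels do not say that each library came from a separate animal, so p-values measure only the spread between these libraries, which may be partly technical.

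Values are FPKM, fragments normalised to transcript length and library size, so levels can be compared between genes. The limma test, on log2(FPKM + 1), took the genes whose FPKM averaged 0.5 or more across the libraries, 14176 in all, and p-values were adjusted over them. "Called" means an adjusted p under 0.05, and a log2 change is KO minus WT on that scale, which understates the change of low genes.

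A cell that divides duplicates its DNA in S phase, separates its chromosomes in mitosis and then cuts itself apart in cytokinesis. Cyclins bound to cyclin-dependent kinases (CDKs) drive these steps, and CDK inhibitors hold them back. RACGAP1 and the kinesin KIF23 together form centralspindlin, a complex at the middle of the spindle that recruits ECT2, the activator of RhoA, to start the contractile ring. Neurons of the adult mouse retina no longer divide, and Müller glia rarely do. The question put to the genes was whether a rise of Racgap1, known from earlier results of these data, came with higher mRNA of other division genes. Levels of mRNA do not measure division itself.

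Unc119 itself was at 510, 460 and 449 FPKM in KO replicates 1, 2 and 3, against 1191, 1187 and 1206 FPKM in WT replicates 1, 2 and 3. The KO mean was 39.6% of the WT mean (limma adjusted p = 6.6e-05), so transcript from the locus was still measured in KO retina. Of the cell types of the retina, cone markers summed to 706 to 754 FPKM in KO libraries and 761 to 821 FPKM in WT libraries. Of the 8 cone markers, 7 were lower and 1 higher, and none was called (smallest limma adjusted p = 0.355). Without overlap of the genotypes 2 of them were lower, beside 8.04% of all genes tested. KO replicate 3 stood apart in lens RNA, with a sum of 11268 FPKM over 16 lens markers, against 273 and 671 FPKM in KO replicates 1 and 2 and 3.62 to 789 FPKM in WT libraries. Xist, which marks female cells, was at 212 and 213 FPKM in KO replicates 2 and 3 and 243 FPKM in WT replicate 3. It was at most 0.0677 FPKM in the other libraries. The genotypes thus also differ in the share of libraries with Xist. Since each genotype had libraries with and without Xist, in neither genotype did all libraries come from 1 animal. The depth behind each value is unknown. Relative depth, read from the commonest ratio between low genes with WT replicate 2 set to 1, was 0.931 to 0.964 in KO libraries and 0.763 to 1 in WT libraries. A value of 0 can be a failed estimate, since Rpl26, a gene of the ribosome, was listed at 0 in KO replicate 1 and WT replicates 2 and 3.

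Racgap1 was higher in KO retina. It measured 15.9, 16.6 and 16.1 FPKM in KO replicates 1, 2 and 3, against 7.59, 8.25 and 8.73 FPKM in WT replicates 1, 2 and 3. The 3 KO libraries lay close together and well above each WT library, with means of 16.2 ± 0.362 FPKM in KO and 8.19 ± 0.573 FPKM in WT (SD, n = 3 each). The KO mean was 1.98 times the WT mean, with a log2 change of 0.91 (SE 0.07, 95% interval 0.75 to 1.07, limma adjusted p = 0.0045). By p-value Racgap1 ranked 5 among the genes tested, and by size of rise it ranked 112. Of the 29 members tested it was the only one called, and of all genes tested 0.205% were called higher and 0.0282% lower. Since its rise was known when the genes were chosen, the call restates an earlier result. The level of Racgap1 in KO replicate 3, the library rich in lens RNA, lay within the range of the other KO libraries.

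Racgap1 (ENSMUSG00000023015.14) lies on chromosome 15, 99620496 to 99651656 on the minus strand of GRCm38 (mm10), and shares no exon bases with another annotated gene. Kif23 (chromosome 9, 61915905 to 61946774) and Ect2 (chromosome 3, 27097222 to 27153878) lie on the minus strand of other chromosomes. Promoters of genes of late cell cycle often hold a cell cycle homology region, bound by the MuvB core complex, which takes part both in silencing these genes in resting cells and in activating them in dividing cells. The 3 promoters of Racgap1 and its partners are shown because the genes act together but only Racgap1 was called higher in KO retina. Each is 300 bases from RefSeq (build GRCm38.p6), from 250 bases before the start site to 50 bases from it, 5′ to 3′ on the gene's strand, with each TTTGAA in capitals; they are chr15:99651607-99651906, chr9:61946750-61947049 and chr3:27153829-27154128, the last being the first of 2 listed windows.
Racgap1: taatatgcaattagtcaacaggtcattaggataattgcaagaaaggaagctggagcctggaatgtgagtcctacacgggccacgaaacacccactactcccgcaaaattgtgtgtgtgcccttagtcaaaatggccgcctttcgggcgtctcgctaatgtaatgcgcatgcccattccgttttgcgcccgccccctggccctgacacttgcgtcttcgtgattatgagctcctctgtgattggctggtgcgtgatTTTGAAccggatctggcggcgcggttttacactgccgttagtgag
Kif23: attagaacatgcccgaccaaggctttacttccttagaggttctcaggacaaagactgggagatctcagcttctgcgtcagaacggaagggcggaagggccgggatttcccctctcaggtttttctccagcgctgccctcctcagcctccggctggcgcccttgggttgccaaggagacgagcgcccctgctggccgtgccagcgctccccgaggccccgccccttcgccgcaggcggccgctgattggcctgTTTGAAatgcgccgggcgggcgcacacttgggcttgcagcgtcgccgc
Ect2: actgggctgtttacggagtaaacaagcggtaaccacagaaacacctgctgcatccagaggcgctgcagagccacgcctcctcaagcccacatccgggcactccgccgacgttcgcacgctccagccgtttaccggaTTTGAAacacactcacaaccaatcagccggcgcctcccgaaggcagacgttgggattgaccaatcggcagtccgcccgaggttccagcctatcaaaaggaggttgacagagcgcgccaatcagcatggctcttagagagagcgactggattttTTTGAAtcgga
The letters TTTGAA began 5 bases after the start site in Racgap1 and 2 bases after it in Kif23. In Ect2 they began 114 bases before it and again 39 bases after it. Searched on both strands, TTTGAA was in the listed promoters of 16 of the 36 members that have one, and in 20.2% of the 27025 genes in the table. CCAAT, a site bound by the factor NF-Y, was in promoters of 27 of the 36 members and 41.1% of genes. The searches for TTTGAA and CCAAT covered different letters, and a match is not a measured binding site.

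No partner of Racgap1 in centralspindlin or at the division site was called higher. Kif23 measured 0.124, 0.124 and 0.200 FPKM in KO replicates 1, 2 and 3, against 0.101, 0.232 and 0.288 FPKM in WT replicates 1, 2 and 3, under the level needed for the test and with overlapping genotypes. Racgap1 averaged 16.2 FPKM in the same KO libraries. Ect2, the RhoA activator that centralspindlin recruits, measured 0.949, 0.954 and 1.05 FPKM in KO and 1.94, 1.35 and 1.14 FPKM in WT. Each KO library was below each WT library, but the change was not called (log2 change −0.31, SE 0.15, 95% interval −0.66 to 0.04, limma adjusted p = 0.594). Of all genes tested, 8.04% were lower and 7.83% higher with genotypes that did not overlap.

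The other 5 cytokinesis genes overlapped between genotypes. Cit encodes citron kinase, which acts at the midbody, the last bridge between daughter cells. Its level was 2.76, 2.42 and 3.05 FPKM in KO and 2.09, 2.42 and 2.06 FPKM in WT (log2 change 0.23, 95% interval −0.04 to 0.50, limma adjusted p = 0.607). Anln encodes anillin, a scaffold of the contractile ring, and was at 0.382, 0.179 and 0.371 FPKM in KO and 0.437, 0.310 and 0.267 FPKM in WT. Prc1, which bundles microtubules of the central spindle, was at 0.425, 0.0973 and 0.564 FPKM in KO and 0.534, 0.177 and 0.0563 FPKM in WT. Anln and Prc1 were both under the level needed for the test, and Prc1 varied more among libraries of 1 genotype than between genotypes. Kif20a, a kinesin that brings Aurora B to the central spindle, measured 0.610, 0.634 and 0.473 FPKM in KO and 0.598, 0.774 and 0.567 FPKM in WT (limma adjusted p = 0.908). Kif4, a chromosome-bound kinesin that works with PRC1, measured 1.62, 0.978 and 0.859 FPKM in KO and 0.940, 1.49 and 0.789 FPKM in WT (limma adjusted p = 0.951). Kif20a shares 1271 exon bases with Cdc23, Kif4 832 with Pdzd11 and Prc1 911 with Rccd1, each on the opposite strand. Whether reads were counted by strand is not given, so reads of such pairs may not be fully told apart.

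**Figure D1:**
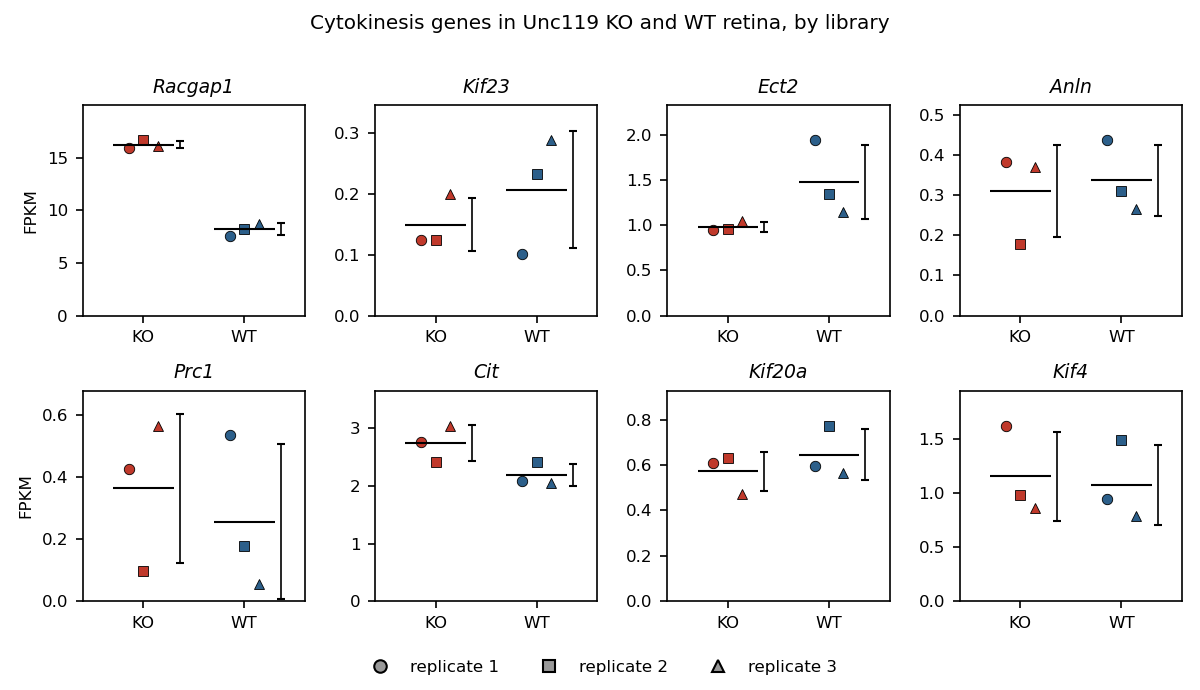
FPKM of the 8 cytokinesis genes in each library, with KO on the left and WT on the right of each panel; symbols mark replicates, the horizontal line is the mean and the bar beside it the SD (n = 3 each), and each panel has its own linear axis from 0. Racgap1 lies at 15.9 to 16.6 FPKM in KO and 7.59 to 8.73 FPKM in WT, Ect2 is lower in each KO library than in each WT library, and the genotypes overlap for the other 6 genes.

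The ratio of Racgap1 to Ect2 was 16.8, 17.4 and 15.4 in KO replicates 1, 2 and 3, against 3.91, 6.11 and 7.63 in WT replicates 1, 2 and 3. Ect2 had the largest fall of the tested members. Among the 28 ratios of Racgap1 to another tested member, this one therefore had to differ most on the scale of log2(FPKM + 1). Of those 28, 22 were higher in each KO library than in each WT library, and 6 overlapped. Racgap1 is the numerator of each ratio, so its own rise lifts all of them, and the count says little about the other members. Since that rise was known when the genes were chosen, these ratios are a description, and no test of them is given. Of the 28 other tested members, 27 had a 95% interval of the log2 change that held 0, Bub1b being the exception. The upper bound of that interval was below 0.5 for 23 of the 28. For low members such as Ccnb2, Kif20a and Plk1 that bound says little, since the scale understates their change.

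Taken without Racgap1, the tested members were spread around no change. Of the 28, 17 were higher and 11 lower, with a median log2 change of 0.04, and over all genes tested 49.3% were higher and the median was 0.00. Ccnd2, among the 17, had a WT mean of 0.446 FPKM, under the filter of 0.5, and passed it through KO replicate 3 at 4.29 FPKM. None of the 28 was called by limma, and 1 of them, Bub1b, had an unadjusted p under 0.05, which 5.19% of all genes had in the higher and 3.81% in the lower direction. Of the 28, 1 was higher and 1 lower without overlap of the genotypes, Bub1b and Ect2, or 3.57% in each direction, against 7.83% higher and 8.04% lower among all genes. Relative to the WT mean, the median of the 28 was −0.03, 0.05 and 0.01 in KO replicates 1, 2 and 3 and −0.06 to 0.01 in the WT libraries.

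**Figure D2:**
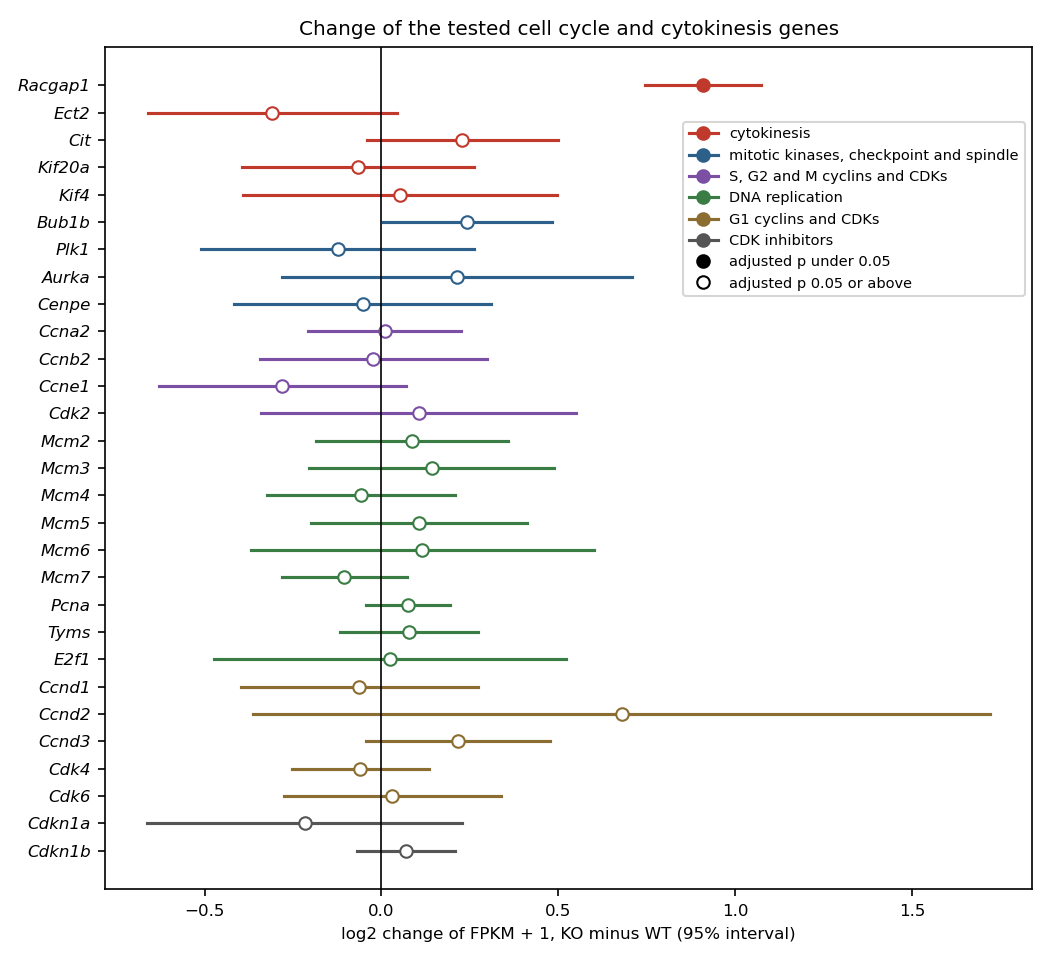
Log2 change of FPKM + 1, KO minus WT, with its 95% interval from limma for the 29 tested members, coloured by role; the filled point has an adjusted p under 0.05. Racgap1 at 0.91 is the only filled point, and the interval of Ccnd2, up to 1.72, is the widest.

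**Figure D3:**
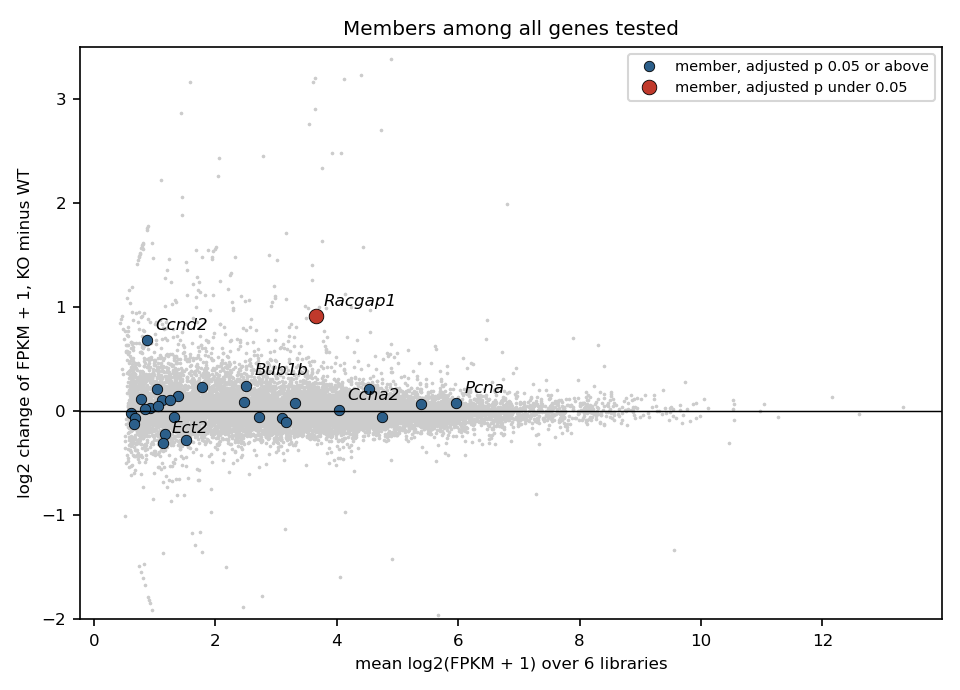
Each point is 1 of the 14176 genes tested, with the mean log2(FPKM + 1) over 6 libraries on the x axis and the log2 change, KO minus WT, on the y axis; large points are the 29 tested members, and 10 genes lie outside the y axis. Racgap1 lies above the cloud of genes of its level, while the other members lie within it except Ccnd2 at its upper edge.

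Markers of proliferating cells were close to 0 in both genotypes. Mki67 encodes Ki-67, which coats mitotic chromosomes, and was listed at 0.0674, 0.0135 and 0.196 FPKM in KO replicates 1, 2 and 3 and at 0, 0 and 0.0470 FPKM in WT replicates 1, 2 and 3. Top2a, the topoisomerase that untangles replicated DNA, was listed at 0.0531, 0.0533 and 0.232 FPKM in KO and 0.0325, 0 and 0.0308 FPKM in WT. For both genes KO replicate 3 held the highest value, and the other KO libraries were at or under 0.0674 FPKM. Top2a was higher in each KO library than in each WT library, but at levels where no test was made. Of the 13 members under the level needed for the test, it was the only 1 higher without overlap, and 0 were lower. The part of depth and of lens RNA in these values was not tested.

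Cdk1, the kinase that drives entry into mitosis, was listed at 0.200, 0 and 0.146 FPKM in KO and 0, 0 and 0.175 FPKM in WT. Ccnb1, the mitotic cyclin that binds CDK1, was listed at 0, 0.0632 and 0.0611 FPKM in KO and at 0 in each WT library. In all, 13 members stayed under the level needed for the test: Kif23, Anln, Prc1, Bub1, Aurkb, Birc5, Cenpf, Kif11, Mki67, Top2a, Ccnb1, Cdk1 and Rrm2. Their highest single value was 0.564 FPKM, of Prc1 in KO replicate 3. Added up, the 13 came to 2.06, 1.04 and 2.63 FPKM in KO and 2.01, 2.22 and 1.56 FPKM in WT, so the genotypes overlapped. The KO mean was above the WT mean for 7 of the 13, and for 5 of the 13 without KO replicate 3.

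**Figure D4:**
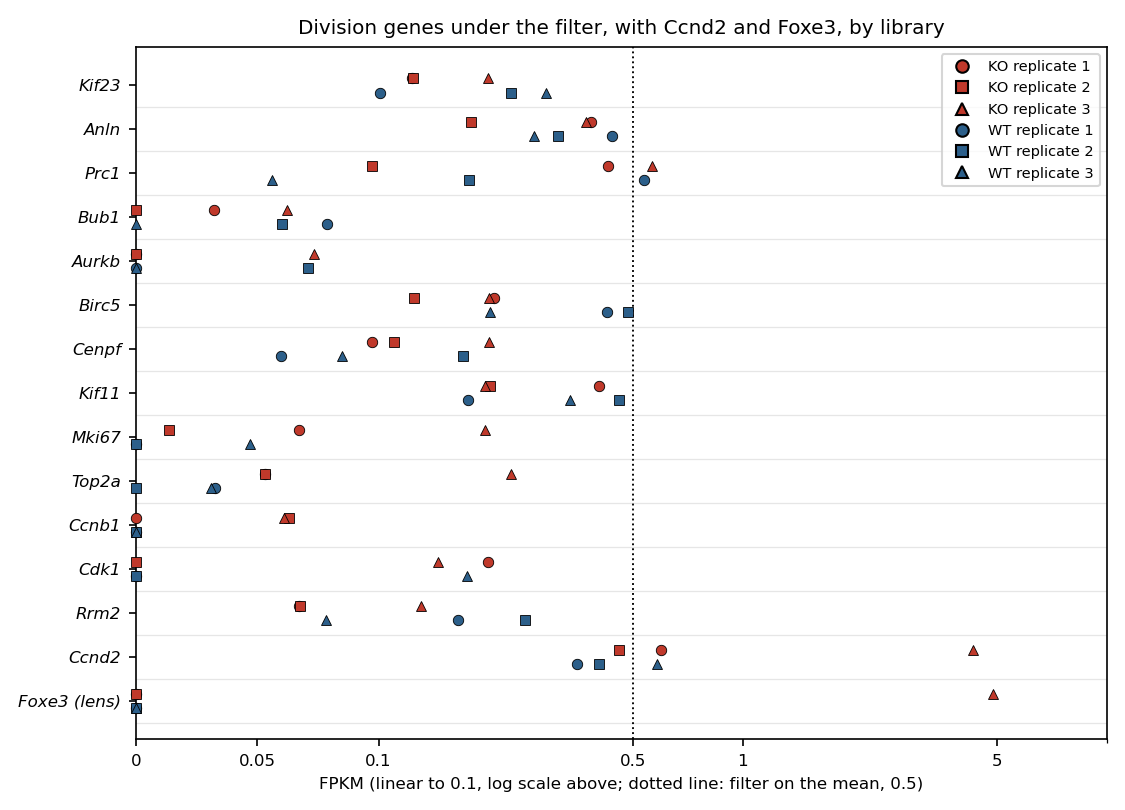
FPKM in each library (x axis, linear to 0.1 and logarithmic above) of the 13 members under a mean of 0.5 FPKM, with Ccnd2 and the lens epithelium gene Foxe3 below them; red symbols are KO and blue symbols WT, and shapes mark replicates. The 13 genes scatter between 0 and 0.564 FPKM in KO and between 0 and 0.534 FPKM in WT. Ccnd2 at 4.29 FPKM and Foxe3 at 4.85 FPKM are high in KO replicate 3 alone.

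Among mitotic kinases and spindle genes, Bub1b was the most abundant. It encodes BUBR1 of the spindle checkpoint and measured 4.64, 5.82 and 5.14 FPKM in KO, against 4.28, 3.95 and 4.46 FPKM in WT. Each KO library was above each WT library by a small margin (log2 change 0.24, SE 0.10, 95% interval 0.00 to 0.48), and the change was not called (limma adjusted p = 0.549). Its partner kinase of the checkpoint, Bub1, was listed at 0 to 0.0625 FPKM in KO and 0 to 0.0789 FPKM in WT. Of the mitotic kinases, Aurka measured 1.22 ± 0.324 FPKM in KO and 0.941 ± 0.492 FPKM in WT (SD, n = 3 each, limma adjusted p = 0.778). Plk1 measured 0.530 ± 0.183 FPKM in KO and 0.666 ± 0.200 FPKM in WT (limma adjusted p = 0.845). Aurkb was listed at 0 in 2 KO and 2 WT libraries. Birc5, which encodes survivin, the partner of Aurora B, measured 0.207, 0.125 and 0.201 FPKM in KO and 0.424, 0.485 and 0.202 FPKM in WT, untested and with overlapping genotypes. The kinetochore motor gene Cenpe was at 1.46 ± 0.277 FPKM in KO and 1.57 ± 0.390 FPKM in WT (limma adjusted p = 0.938). Cenpf, a kinetochore protein gene, and Kif11, the motor that keeps spindle poles apart, were at 0.0975 to 0.403 FPKM in KO and 0.0597 to 0.458 FPKM in WT.

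The cyclins of S phase and mitosis differed widely in level, and none was called. Ccna2, which encodes the cyclin of S and G2 phase, was at 16.3, 16.1 and 14.0 FPKM in KO and 16.7, 13.6 and 15.9 FPKM in WT (log2 change 0.01, 95% interval −0.21 to 0.22, limma adjusted p = 0.983). That level stands apart from Ccnb1 and Cdk1 near 0. Ccna2 shares 510 exon bases with Exosc9 on the opposite strand, which averaged 17.0 FPKM in KO and 18.3 FPKM in WT, and how far its value holds reads of Exosc9 was not tested. Ccnb2, the other mitotic cyclin, was at 0.525 ± 0.0466 FPKM in KO and 0.550 ± 0.0758 FPKM in WT (SD, n = 3 each). Ccne1, the cyclin of entry into S phase, was at 1.61 ± 0.383 FPKM in KO and 2.16 ± 0.360 FPKM in WT (log2 change −0.28, limma adjusted p = 0.621). Its kinase Cdk2 was at 1.28 ± 0.449 FPKM in KO and 1.10 ± 0.322 FPKM in WT (limma adjusted p = 0.894).

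No replication gene was called. Pcna encodes the sliding clamp of DNA polymerases, which also serves DNA repair, and was the most abundant of the 42 genes. It measured 62.2, 64.5 and 63.1 FPKM in KO, against 63.0, 60.6 and 56.6 FPKM in WT. The genotypes overlapped, and the log2 change of 0.08 had a narrow 95% interval of −0.04 to 0.19 (limma adjusted p = 0.690). The MCM genes encode the subunits of the replicative helicase, a ring in which all are needed, and their means ran from 0.811 FPKM for Mcm6 to 7.68 FPKM for Mcm7 in KO and from 0.676 to 8.34 FPKM for the same genes in WT. Their log2 changes lay between −0.10 for Mcm7 and 0.14 for Mcm3. Tyms, which makes thymidylate for DNA synthesis, was at 9.23 ± 0.419 FPKM in KO and 8.72 ± 0.788 FPKM in WT (SD, n = 3 each, limma adjusted p = 0.802). Rrm2, the ribonucleotide reductase subunit made for S phase, was at 0.0673, 0.0676 and 0.131 FPKM in KO and 0.165, 0.252 and 0.0782 FPKM in WT. E2f1, a transcription factor that switches on replication genes, measured 0.480, 0.643 and 1.45 FPKM in KO and 0.916, 0.899 and 0.558 FPKM in WT, with its highest value in KO replicate 3. Its log2 change was 0.02, and −0.19 without that library. None of the 9 replication genes tested was called by limma or had an unadjusted p under 0.05.

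Cyclins and kinases of G1 phase, which carry growth signals to the cell cycle, included Ccnd2, whose change rested on a single library. Ccnd2, cyclin D2, measured 0.597, 0.456 and 4.29 FPKM in KO replicates 1, 2 and 3, against 0.351, 0.402 and 0.583 FPKM in WT replicates 1, 2 and 3. KO replicate 3 was far above all others, and the other KO libraries overlapped WT. The log2 change was 0.68 (95% interval −0.36 to 1.72, limma adjusted p = 0.683), and 0.08 without KO replicate 3. Foxe3, a transcription factor of lens epithelium, was at 4.85 FPKM in that library and listed at 0 in the other 5. All of the 16 lens markers had a log2 change above 0, none of them without overlap of the genotypes, and their part in the level of Ccnd2 was not tested.

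Cdk4, which cyclins D activate, was the most abundant G1 gene, at 25.7, 23.6 and 26.9 FPKM in KO and 26.4, 29.4 and 23.9 FPKM in WT (log2 change −0.06, limma adjusted p = 0.850). Its close relative Cdk6 was at 0.913 ± 0.105 FPKM in KO and 0.873 ± 0.106 FPKM in WT (SD, n = 3 each). Cyclin D1, which is made by Müller glia in the adult mouse retina, is encoded by Ccnd1 and had 6.11, 6.95 and 9.59 FPKM in KO and 7.71, 8.38 and 7.36 FPKM in WT. Again KO replicate 3 was highest, and the genotypes overlapped (limma adjusted p = 0.915). Ccnd3 measured 24.1 ± 2.18 FPKM in KO and 20.7 ± 3.32 FPKM in WT (log2 change 0.22, limma adjusted p = 0.610). Cdk4 shares 641 exon bases with Tspan31, Ccnd3 361 with Bysl and Ccnd1 1100 with LTO1, each on the opposite strand. No value is listed under the symbol LTO1. Across the 42 members, 13 share exon bases with a gene on the opposite strand.

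Neither CDK inhibitor gene was called. Cdkn1b encodes p27, which keeps Müller glia out of the cell cycle in the mouse retina, and measured 42.5, 43.4 and 40.0 FPKM in KO and 42.2, 37.4 and 40.4 FPKM in WT (log2 change 0.07, 95% interval −0.07 to 0.21, limma adjusted p = 0.748). Cdkn1a, the p53 target p21, measured 1.14 ± 0.483 FPKM in KO and 1.45 ± 0.311 FPKM in WT (SD, n = 3 each, log2 change −0.22, limma adjusted p = 0.751).

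Further genes of the same pathways were not called. Of 34 other S phase genes, 26 were tested; 12 were higher, 14 lower, and the median of their log2 changes was −0.01. Gins2, a helicase partner, had the largest positive change at 1.59, 1.12 and 2.63 FPKM in KO and 0.780, 0.893 and 1.48 FPKM in WT (limma adjusted p = 0.621). Ung, a uracil DNA glycosylase, had the largest negative one at 0.544 ± 0.164 FPKM in KO and 0.816 ± 0.218 FPKM in WT (SD, n = 3 each, limma adjusted p = 0.694). Among 38 other G2 and M phase genes, 26 were tested, 10 were higher and 16 lower, the median was −0.02 and none was called. Cdca8, a subunit of the Aurora B complex, had the largest positive change (0.773 ± 0.221 FPKM in KO and 0.543 ± 0.209 FPKM in WT, limma adjusted p = 0.739). Nusap1, a spindle protein gene, had the largest negative change at 1.40, 1.31 and 0.515 FPKM in KO and 1.47, 1.64 and 1.45 FPKM in WT (limma adjusted p = 0.663). Neither list had a gene with an unadjusted p under 0.05 by limma.

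In the list of Rb, E2F and CDK inhibitor genes, 17 of 20 were tested, 11 were higher and 6 lower, the median was 0.05 and none was called, with 1 unadjusted p under 0.05 (E2f6). Its largest positive change was of Cdkn2b, which encodes p15 (0.223, 1.01 and 1.30 FPKM in KO against 0.137, 0.418 and 0.130 FPKM in WT, limma adjusted p = 0.573). Cdkn2b passed the filter only through its KO values, with a mean of 0.845 FPKM in KO and 0.228 FPKM in WT, so its place at the top rests partly on the filter. The largest negative change was of E2f3 (5.82 ± 0.215 FPKM in KO and 6.72 ± 0.523 FPKM in WT, limma adjusted p = 0.586).

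Markers of cells that can divide or react in an injured retina were set beside Racgap1. The 15 microglia and macrophage markers summed to 85.8 to 103 FPKM in KO libraries and 56.4 to 60.9 FPKM in WT libraries. Of the 14 tested, 14 had a log2 change above 0, 10 did not overlap between genotypes and 2 were called, C1qc and Ctss. The 6 astrocyte and reactive glia markers summed to 38.8 to 48.2 FPKM in KO and 19.4 to 23.8 FPKM in WT, with 5 of 5 tested above 0, 4 without overlap and 2 called, Gfap and Serpina3n. Over all genes tested, 49.3% had a log2 change above 0, 7.83% were higher without overlap and 0.205% were called higher. Müller glia markers overlapped in sum, at 1798 to 2143 FPKM in KO and 1757 to 1873 FPKM in WT. Of these 10 markers, 3 were higher without overlap of the genotypes (Vim, Apoe and Aqp4) and 2 lower (Glul and Kcnj10), beside 7.83% and 8.04% of all genes. None of the 10 was called by limma, with 1 unadjusted p under 0.05 in each direction. The sums overlapped also for vessel markers, at 78.8 to 95.7 FPKM in KO and 77.1 to 87.3 FPKM in WT, for pigment epithelium markers, at 18.9 to 81.1 FPKM in KO and 21.7 to 39.2 FPKM in WT, and for red blood cell markers, at 3.25 to 6.14 FPKM in KO and 2.53 to 6.36 FPKM in WT. Lymphocyte and neutrophil markers summed to at most 1.86 FPKM in KO and 1.60 FPKM in WT, with 2 of the 8 listed at 0 in every library. In whole retina, more cells of a type cannot be told apart from more RNA per cell, and the part of microglia, reactive glia and Müller glia in the level of Racgap1 was not tested.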

How the data were processed

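Retinal mRNA of 3 Unc119 knockout (KO) and 3 wild-type (WT) libraries was analysed, grouped by the sample titles. Per the submitters' processing notes TopHat2 2.1.1, Cuffdiff 2.2.1 and mm10 were used; no source used here names the annotation, strand setting or scaling between libraries. Each library's deposited table lists FPKM by gene symbol, per the file headers. FPKM are not counts, so depth is unknown, no counting interval is given, and a gene taking more of a library lowers the others.

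The tables were joined by symbol with Python 3.11.15 and pandas 2.3.3. No 2 libraries held identical values, and the correlation of log2(FPKM + 1) between libraries was 0.983 to 0.993. Genes with a mean of at least 0.5 FPKM were tested by limma 3.58.1 in R 4.3.3 (pseudocount 1, variance trend, two-sided, Benjamini-Hochberg over all genes tested, threshold 0.05), checked on simulated data. Relative depth used genes of at most 0.3 FPKM, with ratios within 0.015 log2 units of the commonest. Positions and exon overlaps come from GENCODE M21 (GRCm38, the build mm10 names), promoters from RefSeq.

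The 42 members, 6 further pathway lists and 11 marker lists were chosen with earlier results of these data known, so no list was tested as a set. Values in every library are given for Unc119, the cytokinesis members, Mki67, Top2a, Cdk1, called or non-overlapping members and the most abundant member of each role. From the pathway lists the genes with the largest changes are named. Results of 1 pathway list and 1 marker list are not reported here. Ccnd2, Ccnd1, Ccnb1, E2f1, Birc5, Rrm2, Foxe3 and other genes outside this rule were picked after their values were seen. Alternatives were another pseudocount, other filters and scalings, library weights, a replicate block, lens and Xist terms, and leaving out each library.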

Additional observations from a re-analysis of the deposited data

How the results depend on the processing

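Racgap1 was the only member called in each of the 15 alternatives, with a log2 change of 0.86 to 0.98 and an adjusted p by limma of 0.0027 to 0.0382. Leaving out single libraries gave 0.86 to 0.95. No other member came below an adjusted p of 0.393. The median of the tested members was 0.05, and 0.0099 with quantile normalization. Over all genes, 29 were called higher and 4 lower. These counts were 13 and 2 with the replicate block, 5 and 2 with the lens term, 18 and 2 with the Xist term, and 9 to 14 higher and 2 to 4 lower without single libraries, fits that have fewer residual degrees of freedom. With no filter 2 were called lower; the cause was not tested. Same-numbered libraries had correlations of 0.07, −0.09 and −0.12 between their deviations from the genotype means. Whether they share more than a number cannot be told from these values, and the labels give no batch. With the replicate block Racgap1 had a limma adjusted p of 0.0354.

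Of the other 28 members, 15 kept their sign throughout and 13 changed it, none of them called; the cause was not tested. With quantile normalization Kif4 was at −0.010, E2f1 at −0.044 and Cdk6 at −0.027, and with library weights E2f1 was at −0.057. With the lens term Cenpe was at 0.13, Cdk2 at −0.10, Mcm5 at −0.014, Mcm6 at −0.058, E2f1 at −0.30 and Cdkn1a at 0.012. Without single libraries the ranges were −0.10 to 0.19 for Kif4, −0.072 to 0.075 for Ccna2, −0.23 to 0.060 for Ccnd1, −0.017 to 0.075 for Cdk6, −0.14 to 0.068 for Cenpe, −0.014 to 0.27 for Cdk2, −0.056 to 0.22 for Mcm6, −0.19 to 0.17 for E2f1, −0.064 to 0.0041 for Ccnb2, −0.12 to 0.047 for Mcm4 and −0.13 to 0.013 for Cdk4. Members with a mean under 2 FPKM have no value under the stricter filter. Unknown depth limits the 13 untested members most.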

Other observations

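Genes of the p53 pathway and of retinal progenitors were not called either. Of 15 p53 pathway genes, 14 were tested, 5 were higher, 9 lower, and the median of their log2 changes was −0.02. None was called by limma, with 1 unadjusted p under 0.05. That gene was Bbc3, which encodes the death protein PUMA and had the largest positive change. It measured 1.42, 1.36 and 1.67 FPKM in KO, against 0.643, 0.982 and 0.610 FPKM in WT, with each KO library above each WT library (log2 change 0.51, limma adjusted p = 0.389). Plk3, a stress-responsive kinase, had the largest negative change (0.894 ± 0.131 FPKM in KO and 1.23 ± 0.334 FPKM in WT, SD, n = 3 each, limma adjusted p = 0.692).

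Of 14 retinal progenitor genes, 10 were tested, 8 were higher and 2 lower, the median was 0.07 and none was called by limma, with 1 unadjusted p under 0.05. That gene was Nes, the intermediate filament nestin, at 1.57, 2.14 and 2.14 FPKM in KO and 1.32, 1.39 and 1.38 FPKM in WT (log2 change 0.31, limma adjusted p = 0.535). Insm1 was at 13.8 ± 0.905 FPKM in KO and 15.7 ± 1.53 FPKM in WT (limma adjusted p = 0.586).

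No neighbour of Racgap1 on chromosome 15 was called. Asic1, 18712 bases away, averaged 5.66 ± 0.732 FPKM in KO and 5.75 ± 0.411 FPKM in WT, and Aqp6, 15019 bases away on the other side, 2.99 ± 0.483 FPKM in KO and 2.82 ± 0.313 FPKM in WT (SD, n = 3 each, limma adjusted p = 0.963 for Asic1 and 0.910 for Aqp6). Aqp5, the aquaporin next to Aqp6, was at 5.33, 2.38 and 3.83 FPKM in KO and 0.363, 1.29 and 0.688 FPKM in WT, higher in each KO library and not called (log2 change 1.43, limma adjusted p = 0.158). Over the 6 cornea and ciliary body markers, the sums were 30.6, 5.74 and 35.1 FPKM in KO and 0.529, 11.0 and 1.03 FPKM in WT, and their part in the level of Aqp5 was not tested.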
